A study of Mus musculus with 8 samples.

Results

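Expression of 10 genes that mark or drive the primitive streak was followed in 8 single mouse embryos collected at embryonic day E6.75. The 10 genes were chosen by symbol: the secreted signal Wnt3, the zinc finger factor Sp5, the T-box factors T, Eomes and Tbx6, the homeobox factors Mixl1, Evx1, Gsc and Lhx1, and the basic helix-loop-helix factor Mesp1. All 10 were among the 21182 gene symbols of the table, and 8 of them passed the filter on low values, as did 10451 genes in all. The filter asked for at least 1 RPKM (reads scaled by the length of the gene and by each 1000000 reads of the library) in at least 4 of the 8 embryos, and Mesp1 and Tbx6 did not reach it.

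The embryos formed 2 groups, 4 with the genotype Tet1/2/3 TKO, which names the loss of all TET methylcytosine dioxygenases, and 4 with the genotype Control. Both groups were of the C57BL/6 background, were lysed as whole embryos and had the same age. The sample descriptions of the Control embryos carry the letters WT, and those of the other group TKO. Beyond that, the labels add no allele, driver line, sex or litter. The comparison asks how early transcription depends on the TET enzymes. RNA of the targeted gene Tet1 stood at 9.21 to 15.3 RPKM in TKO-labelled embryos and at 4.93 to 5.76 RPKM in Control embryos, so the level goes against the label, and the group is called TKO-labelled for that reason. Tet3 stood at 1.14 to 1.68 RPKM in TKO-labelled and at 1.73 to 2.08 RPKM in Control embryos, and Tet2 at 0.598 to 0.993 RPKM in TKO-labelled and 0.444 to 0.850 RPKM in Control embryos. A level per gene does not show whether targeted exons were missing. The estimated depth was 9.9 to 18.97 Mreads in TKO-labelled and 12.39 to 16.42 Mreads in Control embryos (Mreads are units of 1000000 reads), and 3227 to 4942 genes in TKO-labelled and 2186 to 4466 in Control embryos were listed at 0.

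In the mouse the streak forms at the posterior edge of the epiblast at the onset of gastrulation. Nodal and Wnt3 signals start it, T and Eomes mark the cells that enter it, and cells leave it as mesoderm and definitive endoderm. Wnt3 acts through beta-catenin and the TCF/LEF factors, and T and Sp5 are known direct targets of that route. Mesp1 marks the earliest mesoderm to leave the streak and Tbx6 the later paraxial mesoderm. Eomes is also made by extraembryonic ectoderm, and Gsc, Lhx1 and Eomes by anterior visceral endoderm, so a whole embryo holds more than 1 source of these transcripts. In whole embryos a change in the number of cells of a type and a change in RNA per cell cannot be told apart.

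The promoters of T, Sp5 and Mesp1 are shown because these genes had levels in 1 TKO-labelled embryo that were far above those of the other embryos and because Wnt signalling reaches promoters through TCF/LEF. Each runs 5′ to 3′ on the gene's strand from 250 bases before the start site to 50 after it, and was taken from RefSeq on build GRCm38.p6, which is not the build of the expression table. Capitals mark matches on either strand to any of the TCF/LEF words searched. These were CTTTGAA or, in its second form, CTTTGAT, and CTTTGTT or, with another last base, CTTTGTA. The promoters lie at chr17:8434173-8434472 (T, plus strand), chr2:70474673-70474972 (Sp5, plus strand) and chr7:79793541-79793840 (Mesp1, minus strand).
T: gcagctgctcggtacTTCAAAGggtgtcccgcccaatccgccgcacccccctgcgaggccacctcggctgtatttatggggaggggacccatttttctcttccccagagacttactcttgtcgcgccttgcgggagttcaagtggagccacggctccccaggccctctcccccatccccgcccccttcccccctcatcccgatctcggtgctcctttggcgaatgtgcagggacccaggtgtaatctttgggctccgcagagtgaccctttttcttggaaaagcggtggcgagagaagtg
Sp5: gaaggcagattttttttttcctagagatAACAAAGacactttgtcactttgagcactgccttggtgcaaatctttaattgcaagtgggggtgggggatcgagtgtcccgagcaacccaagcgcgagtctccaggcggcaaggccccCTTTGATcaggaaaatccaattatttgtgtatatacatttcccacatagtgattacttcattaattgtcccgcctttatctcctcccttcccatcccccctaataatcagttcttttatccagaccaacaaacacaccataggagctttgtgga
Mesp1: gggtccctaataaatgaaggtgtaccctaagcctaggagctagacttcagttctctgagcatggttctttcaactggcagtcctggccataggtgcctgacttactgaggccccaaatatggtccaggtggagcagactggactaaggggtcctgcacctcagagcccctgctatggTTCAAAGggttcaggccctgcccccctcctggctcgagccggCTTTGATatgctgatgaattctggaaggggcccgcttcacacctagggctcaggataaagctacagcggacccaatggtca
T held 1 match, whose first base lay at position -235 from the start site. Sp5 held 2, at -222 and -104, and Mesp1 held 2, at -73 and -31. Promoters were found for 9 of the 10 genes, all but Mixl1. Of these 9, 4 held such a match, the other being Wnt3, against 16.9% of 32851 promoters of the same length. The T-box half-site GGTGTGA, searched on both strands, was matched in 1 of the 9, that of Mesp1, against 3.98% of all promoters. The GATA word AGATAA was matched in 1 of the 9, that of Sp5, against 11.2%. The TATA box word TATAAA was matched in 2, those of Gsc and Tbx6, against 13.6%. These are matches of letters and do not show binding.

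The levels per gene length gave an order that spanned a wide range. In Control embryos Eomes had the highest median, at 50.2 RPKM, and its range did not overlap that of the next gene. Mixl1 (median 7.53 RPKM), Gsc (6.01), Wnt3 (3.79), T (3.74), Lhx1 (2.57) and Evx1 (1.90) followed, and the ranges of neighbours among these 6 overlapped. Below Evx1 lay Sp5 at 0.671 RPKM, whose range did not overlap that of Evx1, then Mesp1 at 0.203 and Tbx6 at 0.0820 RPKM, whose ranges overlapped. In TKO-labelled embryos Eomes again had the highest median, at 49.8 RPKM, and Mixl1 the next, at 11.8 RPKM.

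Between the groups, 0 of the 8 genes above the filter passed the threshold of 0.05 on the adjusted p of limma (Benjamini-Hochberg over all 10451 tested genes), against 1 gene, or 0.00957%, of all those tested. Of the 10 genes, 9 had a higher mean log2 level in TKO-labelled embryos and 1, Wnt3, a lower one, where 66.5% of all tested genes had a higher one, or 53.6% after median-ratio scaling, which also turned the sign of Eomes. The groups did not overlap in 2 genes, Mixl1 and Lhx1, both higher in TKO-labelled embryos, against 7.55% of tested genes, and 0 did so with lower values, against 1.86%. The same 2 genes had an unadjusted limma p under 0.05, against 13.9% of tested genes with higher values at that p. The median log2 difference of the 8 genes was 0.37, beside 0.09 over all tested genes. A log2 difference here is the TKO-labelled minus the Control mean of log2(RPKM + 1), which understates the change of genes at low levels. For 8 of the 10 genes the highest of all 8 embryos was TKO replicate 2, and the differences between groups are given with and without it.

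**Figure D1:**
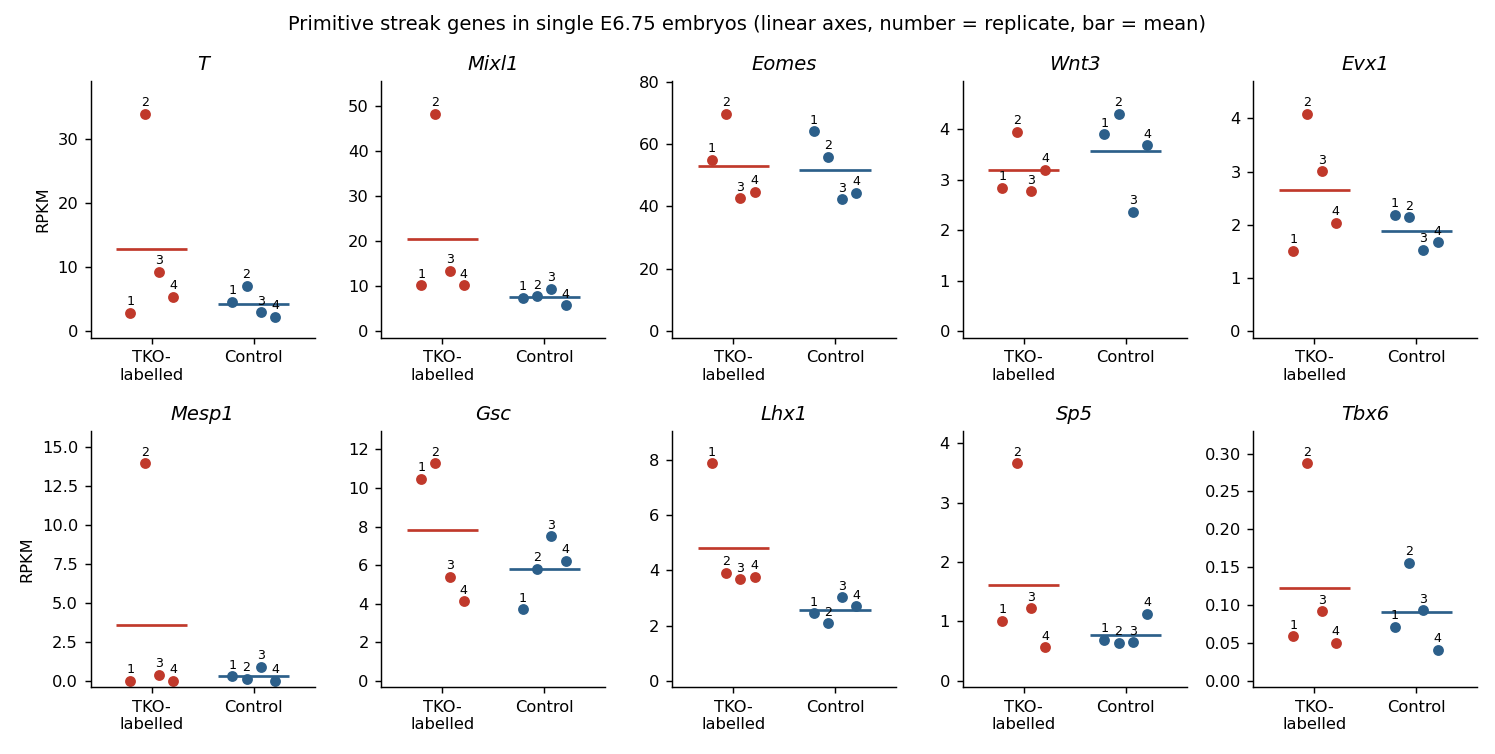
RPKM (linear axes, a separate scale for each gene) of the 10 streak genes in each embryo, TKO-labelled in red and Control in blue; numbers are replicates and bars are group means. TKO replicate 2 was the highest embryo for 8 of the 10 genes, at 34.0 RPKM for T, 48.3 for Mixl1 and 13.9 for Mesp1, while Lhx1 was highest in TKO replicate 1 and Wnt3 in Control replicate 2.

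Wnt3, the ligand that starts the streak from the posterior visceral endoderm and epiblast, had overlapping levels in the groups. It had 2.85, 3.96, 2.78 and 3.20 RPKM in TKO replicates 1 to 4, against 3.90, 4.31, 2.37 and 3.68 RPKM in Control replicates 1 to 4. The groups overlapped, and no TKO-labelled embryo lay above the highest Control embryo. The log2 difference was -0.11, with a 95% interval of -0.47 to 0.25 and an adjusted p of 0.749 by limma. TKO replicate 2 was the highest of the TKO-labelled embryos and lay at 0.917 times the highest of all, Control replicate 2.

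Sp5, a zinc finger factor induced by Wnt signalling in the streak, had 1.01, 3.66, 1.22 and 0.568 RPKM in TKO replicates 1 to 4, against 0.692, 0.637, 0.649 and 1.13 RPKM in Control replicates 1 to 4. TKO replicate 2 stood apart at 2.99 times the highest of the other 7 embryos, and the remaining TKO-labelled values lay close to the Control range. The log2 difference was 0.44 (95% confidence interval -0.19 to 1.07, limma adjusted p = 0.447), and the mean difference was 0.12 without TKO replicate 2. Sp5 passed the filter through 3 TKO-labelled embryos and 1 Control embryo.

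Other Wnt targets and feedback genes were measured beside Sp5. For this and the later lists, 66.5% of all tested genes had positive differences, and some genes were on more than 1 list. Of 13 on the list, 7 passed the filter, 6 of these had positive differences, 0 passed the threshold, and their median log2 difference was 0.11. TKO replicate 2 was the highest embryo for 1 of the 7, against 12.7% of all tested genes. This was Sp8, a paralog of Sp5 named after its values were seen, at 2.499 RPKM. Axin2, a general feedback inhibitor of Wnt signalling, chosen after its values were seen, had 2.65, 3.41, 3.67 and 2.14 RPKM in TKO replicates 1 to 4, against 3.27, 3.85, 3.20 and 2.69 RPKM in Control replicates 1 to 4. The groups overlapped, and TKO replicate 2 lay within the Control range. By the rule of smallest p the list is represented by Dkk1, a secreted Wnt inhibitor (log2 difference 0.25, limma adjusted p = 0.352), and Znrf3, a ubiquitin ligase that removes Wnt receptors (0.24, limma adjusted p = 0.408).

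T, or Brachyury, the T-box factor that defines the streak, varied most among the genes above the filter. It had 2.86, 34.0, 9.29 and 5.41 RPKM in TKO replicates 1 to 4, against 4.55, 7.06, 2.94 and 2.24 RPKM in Control replicates 1 to 4. TKO replicates 2 and 3 lay above every Control embryo, while TKO replicate 1 lay near the lower Control values, and the groups overlapped. The highest TKO-labelled embryo had 11.9 times the level of the lowest, and the highest Control embryo 3.15 times that of the lowest. The log2 difference was 0.99 (95% confidence interval -0.26 to 2.24, limma adjusted p = 0.386), the exact two-sided permutation p was 0.257, and without TKO replicate 2 the difference was 0.37. These levels rest on an estimated 57.9 to 986 reads per embryo.

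Eomes, which is needed for cells to leave the epiblast as mesoderm and endoderm, had 55.0, 69.8, 42.7 and 44.7 RPKM in TKO replicates 1 to 4, against 64.1, 56.0, 42.3 and 44.4 RPKM in Control replicates 1 to 4. The ranges of the groups nearly coincided. TKO replicate 2 was again the highest embryo, but at only 1.09 times the next. The log2 difference was 0.03 (95% confidence interval -0.37 to 0.43, limma adjusted p = 0.951), and its sign changed after median-ratio scaling (-0.06) and without TKO replicate 2 (-0.11). The other extraembryonic ectoderm genes of the list, which mark a second source of Eomes, gave no member past the threshold. Its 12 tested members, Eomes included, had a median log2 difference of -0.000993. Rhox6, a reproductive homeobox gene, had a log2 difference of 0.81 (limma adjusted p = 0.170) and Fgfr2, the FGF receptor of trophoblast, one of -0.39 (limma adjusted p = 0.185).

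Tbx6, a T-box factor of paraxial mesoderm, was barely detected. It had 0.059, 0.287, 0.092 and 0.050 RPKM in TKO replicates 1 to 4, against 0.071, 0.156, 0.093 and 0.041 RPKM in Control replicates 1 to 4. At the estimated depth these are about 1.0, 7.0, 3.0 and 1.0 reads and 2.0, 4.0, 2.0 and 1.0 reads. TKO replicate 2 was highest, but these are few reads, and the exact permutation p between the groups was 0.771.

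Mixl1, a homeobox factor of the streak that controls mesoderm and endoderm formation, was higher in every TKO-labelled embryo than in every Control embryo. It had 10.2, 48.3, 13.4 and 10.2 RPKM in TKO replicates 1 to 4, against 7.35, 7.71, 9.37 and 5.77 RPKM in Control replicates 1 to 4. The gap between the groups was narrow, since the lowest TKO-labelled value was 10.17 and the highest Control value 9.37 RPKM. The log2 difference was 1.03 (95% confidence interval 0.13 to 1.93), with an unadjusted limma p of 0.0288, an adjusted one of 0.239 and an exact permutation p of 0.0286, the smallest that 4 against 4 embryos can give. Without TKO replicate 2 the difference was 0.53 and the exact permutation p 0.0571, the groups still not overlapping. The limma p without that embryo was 0.0106 unadjusted and 0.180 adjusted.

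Evx1, a homeobox factor of the posterior streak, had 1.51, 4.09, 3.00 and 2.04 RPKM in TKO replicates 1 to 4, against 2.19, 2.14, 1.53 and 1.67 RPKM in Control replicates 1 to 4. The order of the TKO-labelled embryos was that of T and Mixl1, with replicate 2 highest, then 3, 4 and 1. This order held for 3 of the 10 genes, and for 6.59% of all tested genes. The groups overlapped (log2 difference 0.30, 95% interval -0.16 to 0.76, limma adjusted p = 0.475, and 0.12 without TKO replicate 2).

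Gsc and Lhx1 are homeobox factors of the anterior streak, the organizer and the anterior visceral endoderm. Gsc had 10.5, 11.3, 5.40 and 4.13 RPKM in TKO replicates 1 to 4, against 3.71, 5.81, 7.50 and 6.22 RPKM in Control replicates 1 to 4. TKO replicates 1 and 2 lay above every Control embryo and the other TKO-labelled embryos inside the Control range (log2 difference 0.31, 95% interval -0.33 to 0.94, limma adjusted p = 0.601, and 0.12 without TKO replicate 2).

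Lhx1 had 7.88, 3.92, 3.68 and 3.77 RPKM in TKO replicates 1 to 4, against 2.44, 2.09, 3.03 and 2.71 RPKM in Control replicates 1 to 4. Every TKO-labelled embryo lay above every Control embryo, and TKO replicate 1 stood at 2.01 times the next highest embryo. The log2 difference was 0.65 (95% confidence interval 0.20 to 1.11), with an unadjusted limma p of 0.00893, an adjusted one of 0.182 and an exact permutation p of 0.0286. Unlike those of T, Mixl1, Evx1, Gsc and Sp5, it was no smaller without TKO replicate 2, at 0.72, and it was 0.43 without TKO replicate 1.

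Mesp1, the basic helix-loop-helix factor of the first mesoderm, was found at a high level in 1 embryo. It was listed at 0, 13.9, 0.389 and 0 RPKM in TKO replicates 1 to 4, and at 0.281, 0.124, 0.892 and 0 RPKM in Control replicates 1 to 4. TKO replicate 2 had 15.6 times the level of the next embryo, a Control one. At the estimated depth its value rests on about 251 reads and every other value on at most about 14.1. The exact permutation p between the groups was 0.8, and the log2 difference changed sign, to -0.20, without TKO replicate 2.

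**Figure D2:**
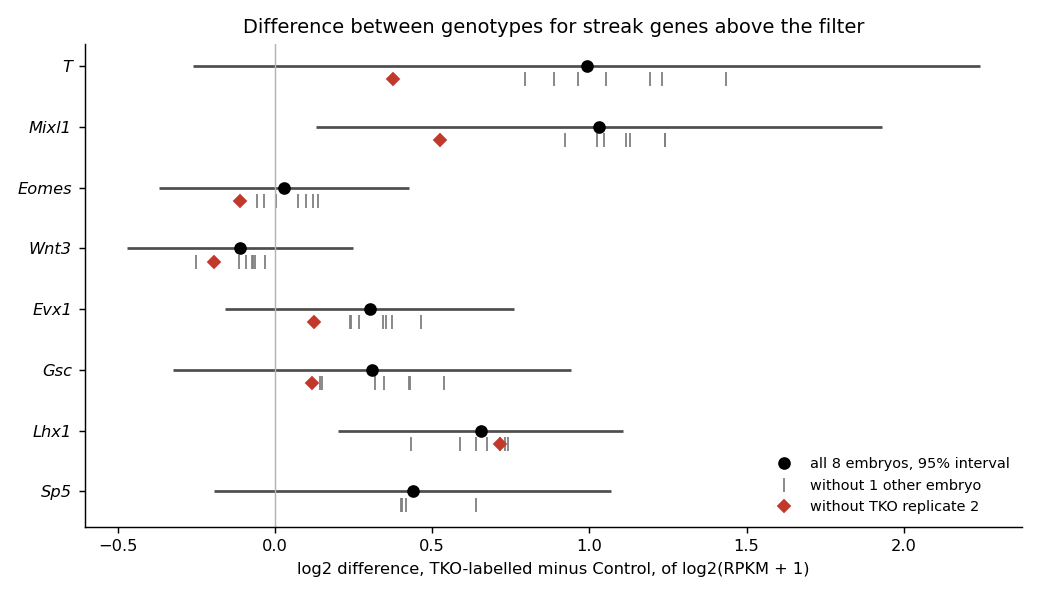
Log2 difference (TKO-labelled minus Control, of log2(RPKM + 1)) of the 8 streak genes above the filter, with the 95% interval of limma over all 8 embryos (points and lines), and the same with 1 embryo left out (red diamond for TKO replicate 2, grey ticks for the others, where the gene still passed the filter). T stood at 0.37 and Mixl1 at 0.53 without TKO replicate 2, while Lhx1 stood at 0.72; Sp5 has no diamond because it did not pass the filter without that embryo.

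The lead of TKO replicate 2 was set against all genes. The level in this embryo was over 1.5 times the highest of the other 7 embryos for 26 tested genes, or 0.249%, and 3 of the 8 streak genes above the filter were among them. By that ratio T ranked 1, Mixl1 ranked 2 and Sp5 ranked 4 of 10451 genes, at 3.66, 3.60 and 2.99 times, and the ranks were the same after median-ratio scaling. The ranks describe 1 embryo. Genes below the filter, such as Mesp1 at 15.6 times, have no rank, and Sp5 passed the filter only with TKO replicate 2 counted. Of the 23 other genes, those named here were chosen after their values were seen and not in order of rank. Frzb, a secreted Wnt inhibitor, reached 2.42 times the next embryo, Lefty2, a Nodal inhibitor of nascent mesoderm, 1.599 times, and Tdgf1, the Nodal co-receptor Cripto, 1.52 times. Prtg, or protogenin, a cell surface protein of the streak and early mesoderm, reached 1.54 times and Snora62, a small nucleolar RNA, 3.03 times. The others included more small nucleolar RNA genes, such as Snord82 (1.84 times) and Snord100 (1.75 times). They also included BC028528 (1.99 times) and Xlr3c (1.88 times). The highest embryo was TKO replicate 2 for 12.7% of tested genes and TKO replicate 1 for 19.5%.

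**Figure D3:**
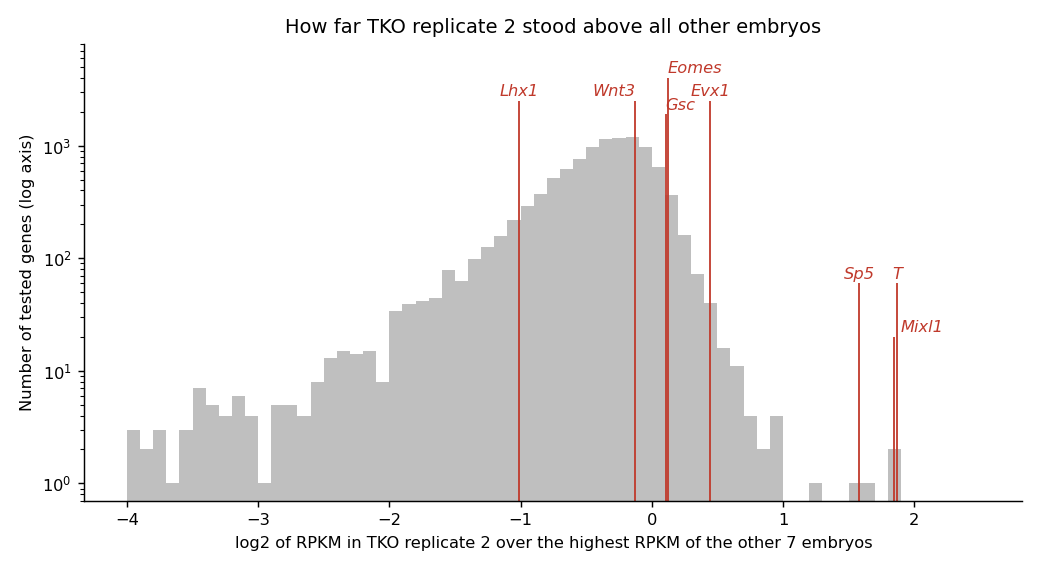
Histogram over tested genes (log axis for the number of genes) of log2 of RPKM in TKO replicate 2 over the highest RPKM of the other 7 embryos, with the 8 streak genes above the filter as red lines whose heights carry no value; genes below -4 are not drawn. T, Mixl1 and Sp5 lie at the far right, at ranks 1, 2 and 4, Evx1, Eomes and Gsc just above 0, and Wnt3 and Lhx1 below 0.

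The rank of each embryo differed from gene to gene. TKO replicate 2 was among the 3 highest embryos for all 10 genes, TKO replicate 3 for 5, Control replicate 2 for 4 and Control replicates 1 and 3 for 3 each. TKO replicates 1 and 4 were among them for 2 genes each and Control replicate 4 for 1. After median-ratio scaling these counts were 3, 10, 6 and 0 for TKO replicates 1 to 4. They were then 2, 5, 3 and 1 for Control replicates 1 to 4. Among Control embryos, replicates 1 and 2 lay above replicates 3 and 4 for 4 genes, T, Eomes, Wnt3 and Evx1, as they did for 20.7% of tested genes. Mixl1, Gsc, Lhx1 and Mesp1 were highest, among Control embryos, in replicate 3. These values order transcript levels, and no embryo was staged by its form.

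Signals and later mesoderm genes were compared from lists. Of 20 genes of streak-inducing signals, 15 passed the filter, 12 of these had positive differences, 0 passed the threshold and the median log2 difference was 0.23. By smallest p the list is represented by Gdf3, a ligand related to Nodal (log2 difference 1.40, limma adjusted p = 0.145), and Porcn, the acyltransferase that readies Wnt ligands for secretion (0.45, limma adjusted p = 0.211). Of the 15, TKO replicate 2 was the highest embryo for 5 and TKO replicate 1 for 7, against 12.7% and 19.5% of all tested genes. Nodal, Fgf8 and Tdgf1 were chosen from the list after their values were seen. Nodal, the TGF-beta family signal of the streak, had 9.82, 9.28, 11.1 and 8.17 RPKM in TKO replicates 1 to 4, against 6.04, 11.52, 6.50 and 11.2 RPKM in Control replicates 1 to 4. It was highest in Control replicate 2, and the groups overlapped. Fgf8, a growth factor of the streak, had 7.11, 17.5, 9.69 and 8.64 RPKM in TKO replicates 1 to 4, against 8.81, 12.9, 5.28 and 9.91 RPKM in Control replicates 1 to 4. Tdgf1 had 83.1, 131, 71.5 and 74.8 RPKM in TKO replicates 1 to 4, against 51.0, 86.1, 49.4 and 63.6 RPKM in Control replicates 1 to 4. For Fgf8 and Tdgf1 replicate 2 was the highest in each group, and the groups overlapped.

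Nascent mesoderm genes spanned a wide range of levels. Of the 20 on the list 19 were in the table and 11 passed the filter, with 7 positive differences, 0 past the threshold and a median log2 difference of 0.15. TKO replicate 2 was the highest embryo for 9 of the 19 and for 3 of the 11, against 12.7% of all tested genes. Snai1, the repressor of E-cadherin in cells leaving the streak, had 1.78, 6.747, 9.25 and 2.58 RPKM in TKO replicates 1 to 4, against 2.02, 1.56, 2.17 and 3.64 RPKM in Control replicates 1 to 4. Pdgfra, a growth factor receptor of mesoderm and of parietal endoderm, had 2.30, 8.49, 9.82 and 5.78 RPKM in TKO replicates 1 to 4, against 4.61, 1.30, 2.85 and 2.75 RPKM in Control replicates 1 to 4. Both were highest in TKO replicate 3 and next highest in TKO replicate 2, and the groups overlapped (log2 differences 0.70 and 0.91, limma adjusted p = 0.361 and 0.243).

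The list of anterior streak, node and endoderm genes, which holds Gsc and Lhx1, had 10 of 13 members above the filter, 9 with positive differences, 0 past the threshold and a median log2 difference of 0.31. After Lhx1, its smallest p was that of Foxa1, a forkhead factor of endoderm (log2 difference 0.32, limma adjusted p = 0.239). In the anterior visceral endoderm list, which holds Lhx1 and Dkk1, all 9 members were above the filter, with 7 positive differences, 0 past the threshold and a median of 0.25. TKO replicate 1 was the highest embryo for 6 of these 9 and for 7 of the 12 epiblast genes, against 19.5% of all tested genes. Among the epiblast genes was Pou5f1, which encodes Oct4, at 57.3, 24.6, 15.3 and 34.3 RPKM in TKO replicates 1 to 4 and at 10.8, 18.2, 13.2 and 19.0 RPKM in Control replicates 1 to 4 (log2 difference 0.93, limma adjusted p = 0.215). The embryo with the highest Lhx1 had the highest Pou5f1, and the lowest T of the TKO-labelled group. The 12 epiblast genes all passed the filter, with 9 positive differences, 0 past the threshold and a median of 0.31, and Fgf5, a marker of postimplantation epiblast, had a log2 difference of 0.43 (limma adjusted p = 0.227).

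Markers of other tissues also varied between embryos. Of 13 parietal endoderm genes 12 passed the filter, 12 of these had positive differences, 0 passed the threshold and the median log2 difference was 1.33. Their summed level was 263, 711, 931 and 606 RPKM in TKO replicates 1 to 4, against 260, 158, 214 and 313 RPKM in Control replicates 1 to 4, with no marker at 0 in any embryo. It was high in TKO replicates 2, 3 and 4, and lowest of that group in replicate 1, where T was lowest too. Among Control embryos the extremes ran the other way. The lowest sum lay in replicate 2, where T was highest, and the highest in replicate 4, where T was lowest. Replicate 1 lay above replicate 3 in both the sum and T. By smallest p the list is represented by Nid1, a basement membrane linker (log2 difference 1.64, limma adjusted p = 0.132), and Sparc, a matrix protein (1.18, limma adjusted p = 0.145). The 15 visceral endoderm genes all passed the filter and summed to 1518 to 1761 RPKM in TKO-labelled and 663 to 2242 RPKM in Control embryos, with 12 positive differences, 0 past the threshold and a median of 0.38. By smallest p they are represented by Gata6 (log2 difference 1.20, limma adjusted p = 0.145) and Gata4 (0.81, limma adjusted p = 0.155), factors of primitive endoderm derivatives. The negative differences were those of Afp (-0.25), Amn (-0.23) and Trf (-0.03), named after their values were seen.

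Maternal transcripts differed between embryos by more than those of any list above. Of 14 genes of decidua and blood 12 were in the table and 7 passed the filter, with 0 positive differences, 0 past the threshold and a median log2 difference of -0.88. Their summed level was 29.3, 14.9, 419 and 61.8 RPKM in TKO replicates 1 to 4, against 213, 7.07, 446 and 259.5 RPKM in Control replicates 1 to 4. Replicate 2 of each group had the lowest maternal sum and the highest T of its group. Ptprc and S100a9 were at 0 in TKO replicates 1 and 2, Hand2 in TKO replicate 2 and S100a8 in Control replicate 2; all but Hand2 are named after their values were seen. By smallest p the list is represented by Cebpb (log2 difference -1.05, limma adjusted p = 0.247) and Hand2 (-0.88, limma adjusted p = 0.498), both transcription factors of decidual stroma. The part of parietal endoderm, visceral endoderm and maternal RNA in the streak gene levels was not tested.

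**Figure D4:**
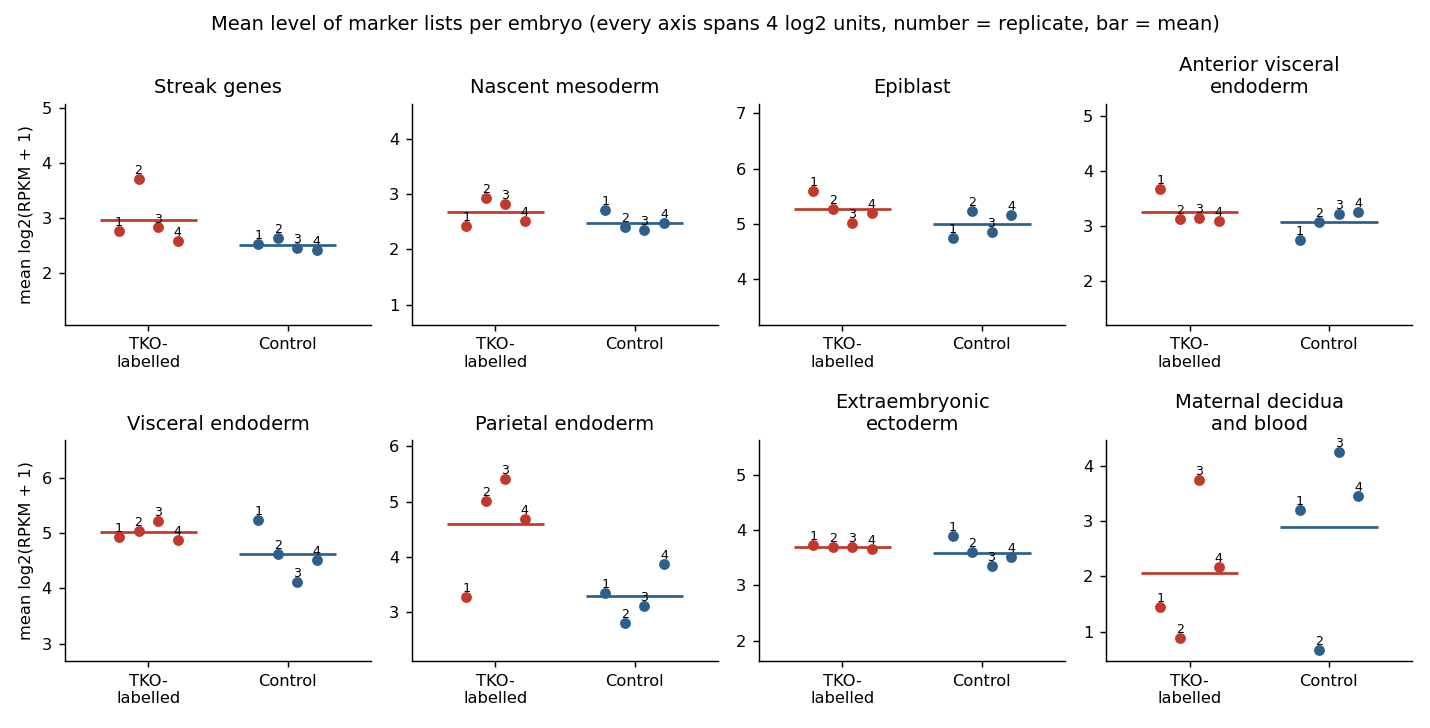
Mean log2(RPKM + 1) over the tested members of 8 gene lists in each embryo, TKO-labelled in red and Control in blue; numbers are replicates, bars are group means, and every axis spans 4 log2 units. TKO replicate 2 is highest for the streak genes (3.71), TKO replicate 1 for epiblast (5.604) and anterior visceral endoderm (3.68), and the maternal list is lowest in replicate 2 of each group (0.89 in TKO-labelled and 0.66 in Control).

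Genes with a pattern like that of T were sought by the root mean square distance of log2(RPKM + 1), each gene centred on its mean over the 8 embryos. Of all tested genes Mixl1 was nearest to T, at 0.46 log2 units, where the median over 10443 genes outside the set was 1.04. The nearest genes outside the set were Frzb (0.63), the small nucleolar RNA genes AF357359 (0.64) and Snora62 (0.65), Fkbp7, a chaperone of the endoplasmic reticulum (0.66), and Nucb2, a calcium-binding protein (0.66). Over the 7 embryos without TKO replicate 2, 0 of these 5 stayed among the nearest 5 and Mixl1 ranked 668. The distance of Mixl1 from T was then 0.47, and that of the nearest gene, H2-M3, was 0.29. T itself varied less without that embryo, its highest TKO-labelled level being 3.25 times the lowest. The distances of Mixl1 over 8 and over 7 embryos therefore cannot be compared directly.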

How the data were processed

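RNA of 8 single embryos was amplified with SMARTer chemistry and sequenced as Nextera XT libraries on a HiSeq instrument, per the labels' protocols. The authors deposited 1 RPKM value per gene symbol and embryo, the unit being that in the name of their table. Per the submitters' processing notes, HTSeq (no version) and mm9 were used. No step can be named for the aligner, annotation or strand setting, each not given in the sources used here, so reads of overlapping genes cannot be told apart. Groups came from the sample labels, and each p-value measures the spread among single embryos.

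Depth was estimated from low values of genes with 1 transcript in GENCODE M21, at 9.9 to 18.97 Mreads in TKO-labelled and 12.39 to 16.42 Mreads in Control embryos (Mreads are units of 1000000 reads). At these totals 31.1% to 38.3% of low values were 1 to 3 whole reads within 2%, against 2.6% to 3.8% at random totals. Reads were not recovered for nearly all genes, so no count test was run, and read numbers of single genes, which use the longest GENCODE transcript, are approximate.

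limma 3.58.1 in R 4.3.3 was run on log2(RPKM + 1) with the variance trend, on genes with at least 1 RPKM in at least 4 embryos, with no covariate. Exact two-sided permutation used all 70 assignments. Alternatives were another pseudocount (0.1), no filter, a filter on the mean, median-ratio scaling, no variance trend, a replicate block and leaving out each embryo. Named were the 10 genes, Tet1 to Tet3, the 2 genes of each list with the smallest p and the 5 nearest to T. The genes and lists were chosen with earlier results of these data known, so no p was adjusted over them.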

Additional observations from a re-analysis of the deposited data

Results flagged for a closer look

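In 4 of the 20 groups of 4 values examined (10 genes in 2 genotypes) 1 embryo stood far from the others. Its gap to the nearest exceeded Dixon's 95% critical value for 4 samples. Chance flags about 1 group in 20 where values are normal and groups independent. These groups share the same 8 embryos, so the number of flags was not tested against that rate. Mixl1 stood at 48.3 RPKM and Mesp1 at 13.9 RPKM in TKO replicate 2, with gaps of 0.914 and 0.972 of the range. Lhx1 stood at 7.88 RPKM in TKO replicate 1, with a gap of 0.943 of the range. Sp5 stood at 1.13 RPKM in Control replicate 4, with a gap of 0.888 of a narrow range whose lowest value was 0.637 RPKM.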

How the results depend on the processing

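With 1 gene called over all 8 embryos, 0 were called when low genes were kept in, and 0 with the replicate block. Leaving out 1 embryo gave 0 to 36 called genes, the most without TKO replicate 1 (29 higher, 7 lower). None of the 10 streak genes was called under any alternative in which it had a value, with lowest adjusted limma p-values of 0.209 for T, 0.175 for Mixl1 and 0.162 for Lhx1. Of 130 recomputed differences of streak genes 124 kept their direction and 6 changed it. Eomes was at -0.056 after median-ratio scaling, and at -0.11 to 0.14 with 1 embryo left out. Mesp1 ranged from -0.20 to 1.096 and Tbx6 from -0.030 to 0.068 with 1 embryo left out; both changed sign without TKO replicate 2. Sp5 had no limma value after median-ratio scaling or without TKO replicate 1, 2 or 3 or Control replicate 4, where it did not pass the filter, and the block was not computed for Mesp1 and Tbx6. Median-ratio scaling changed the share of tested genes with higher values in TKO-labelled embryos from 66.5% to 53.6%, and TKO replicate 2 stayed the highest embryo for 8 of the 10 genes (an alternative added after seeing the data). At an unadjusted limma p under 0.05, 1448 genes were higher and 376 lower in TKO-labelled embryos, against 839 and 673 after that scaling. Deviations from the group mean in same-numbered embryos had correlations of -0.00, 0.40, 0.26 and -0.02 for numbers 1 to 4. Different-numbered embryos had -0.46 to 0.20, so those of numbers 2 and 3 were the highest of all. Whether the numbers pair the embryos cannot be told from these values, and the main fit did not pair them. With the replicate block the unadjusted limma p was 0.0209 for T and 0.0102 for Mixl1, and the adjusted one 0.212 and 0.175. Depth limits Tbx6 and Mesp1.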
